A study of Mus musculus with 4 samples.

Results

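The cells described here are epithelial tumor cells of an orthotopic mouse pancreatic tumor graft in which transcripts of Sprr1a, Ivl, Anxa10, Glod5, Fermt1 and Wfdc2 (the S genes) led over 3 other sets of 6 genes. They were selected on measured UMI counts (unique molecular identifiers, each standing for 1 captured transcript). A cell needed at least 2000 UMIs, at least 3 of the 8 epithelial genes Krt7, Krt8, Krt18, Krt19, Epcam, Cldn4, Cldn7 and Cdh1, and no UMI of Ptprc, Pdgfra or Pecam1, which mark leukocytes, fibroblasts and endothelium. Of 45218 deposited cells, 19431 passed these limits. Among them, 5092 cells (26.21%) had at least 2 S genes and more S genes than genes of any other set, and are called S-leading cells below. The other sets gave 929 G-leading cells (Gkn1, Gkn2, Muc5ac, Mucl3, Tff1, Sptssb), 4121 N-leading cells (Klhl1, Lingo2, Hmga2, Rgs20, Ndst3, Tnnt2) and 3731 H-leading cells (Tenm1, Pkhd1, Pik3c2g, Plch1, Onecut3, Hnf1aos1), while 3994 cells were tied and 1564 reached no set's minimum. A working name of squamous-like had been attached to the S-leading cells, and it was checked against squamous genes before use.

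The study asked how a pancreatic carcinoma responds when stromal cells are depleted. KPC tumor cells, 1 line from a pancreatic tumor of a genetically engineered mouse, were grafted into the pancreas of male mice, and single-cell RNA libraries were made from the tumors on the 10x platform. In the first model the hosts were Pdgfrb-TK C57BL/6 mice, whose thymidine kinase is driven by the Pdgfrb promoter, given ganciclovir (GCV, 50 mg/kg) or PBS. In the second model the hosts were C57BL/6 mice given D-CAN (30 mg/kg), a cytotoxic peptide aimed mainly at stromal cells of adipose origin, or PBS (WT/PBS). All hosts had a labelled age of 7 months (the methods of the study give an older age), had eaten a high-fat diet for 24 weeks and were treated for 25 days. Cells of the mice of 1 treatment were pooled, so each condition is 1 library, no replicate error can be given, and every comparison below is of those libraries. Pdgfrb is expressed in pericytes and other stromal cells. Values are given throughout with the first model before the second and, within a model, the treated library before its PBS control.

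The libraries Pdgfrb-TK/GCV and Pdgfrb-TK/PBS, then D-CAN and WT/PBS, held 12280, 10495, 10786 and 11657 cells and 127722502, 84020317, 130115741 and 155408336 UMIs, of which 5381, 5982, 3080 and 4988 cells passed the epithelial limits. The S-leading cells had medians of 15220.5, 12551.5, 24930.5 and 17699.5 UMIs, above the 13390, 8268, 20911.5 and 13688 UMIs of the other gated cells. Mitochondrial transcripts took a median of 4.556%, 3.288%, 3.879% and 5.479% of their UMIs, below the 5.31%, 4.96%, 5.126% and 6.574% of the other gated cells and above the 4.44%, 3.059%, 3.189% and 4.203% of N-leading cells. Ribosomal protein transcripts took a median of 17.32%, 21.14%, 17.13% and 18.15%. In WT/PBS, 15.52% of the S-leading cells were above 20% mitochondrial UMIs, against 4.05%, 1.894% and 9.247% in the other 3 libraries. Of the S-leading barcodes, 11, 15, 4 and 14 occurred in another library too. The WT/PBS library stood apart in heat-shock transcripts, with 68.6, 16.5, 113 and 544 CPM of Hspa1a in S-leading cells. CPM are UMIs scaled to the group's total over all genes but the 35 genes of the rule. The G-leading group of D-CAN held 40 cells with a median of 4250 UMIs and a mitochondrial share of 44.92%, so comparisons with G-leading cells rest on few transcripts there. Among markers of other cell types, those of macrophages summed to 206, 130, 129 and 83.6 CPM and those of cancer-associated fibroblasts to 76.1, 99.5, 51.1 and 396 CPM in S-leading cells. Neutrophil markers summed to 13, 19.4, 11.8 and 53.3 CPM, T cell markers to 5.99, 2.65, 5.52 and 3.1 CPM and erythrocyte markers to 0.458, 33, 0 and 0.26 CPM. Acinar markers summed to 31.6, 35.1, 41.3 and 30.3 CPM, against 36.9, 52.6, 366 and 23.6 CPM in all deposited cells. The part of these transcripts in the results was not tested. No doublet caller was run. Leaving out the 5% of cells with the most UMIs is given among the alternatives.

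The stratified, or squamous, programme is known from skin and other stratified linings. Basal cells carry the transcription factor p63 (Trp63) with keratins Krt5 and Krt14, and cells that leave the basal layer make suprabasal keratins and then envelope proteins such as involucrin (Ivl), loricrin (Lor), filaggrin (Flg) and the small proline-rich proteins (Sprr genes), many of which lie together in the epidermal differentiation complex. In pancreatic carcinoma, a basal or squamous subtype with p63 expression is known beside a classical subtype with gastric and glandular genes. Ivl and Sprr1a can also be induced in injured or stressed epithelium outside stratified linings.

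The S genes differ in role and in their place in the genome, given here for the mm10 build. Sprr1a (chr3:92483952-92485895, minus strand) and Ivl (chr3:92570902-92573735, minus strand) encode envelope proteins and lie in the epidermal differentiation complex. Anxa10 (chr8:62057042-62123150, minus strand) encodes an annexin known from gastric epithelium, and Wfdc2 (chr2:164562413-164568510, plus strand) a secreted whey acidic protein domain protein of many glandular epithelia. Fermt1 (chr2:132904389-132945906, minus strand) encodes kindlin-1, an activator of integrins, and Glod5 (chrX:8004200-8018492, minus strand) a glyoxalase domain protein. Promoters from RefSeq for GRCm38.p6, 250 bases before to 50 bases after the start of transcription, were found for 5 of the 6 genes, all but Glod5. They are shown for 4 genes because Sprr1a, Ivl and Anxa10 were detected together in the same cells (values below), with Wfdc2, the most abundant of the set, beside them. The capitals mark TGANTCA, the core of the AP-1 motif, which was searched on both strands and is its own reverse complement apart from the central base. The Sprr1a window is chr3:92485832-92486131 (minus strand), that of Ivl chr3:92573686-92573985 (minus strand), that of Anxa10 chr8:62123144-62123443 (minus strand) and that of Wfdc2 chr2:164562465-164562764 (plus strand).
Sprr1a: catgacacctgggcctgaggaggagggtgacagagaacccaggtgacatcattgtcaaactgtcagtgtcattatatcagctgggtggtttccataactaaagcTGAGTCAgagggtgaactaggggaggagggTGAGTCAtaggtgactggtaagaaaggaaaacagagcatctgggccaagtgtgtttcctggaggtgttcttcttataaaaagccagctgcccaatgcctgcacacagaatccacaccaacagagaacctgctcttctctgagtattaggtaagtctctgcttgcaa
Ivl: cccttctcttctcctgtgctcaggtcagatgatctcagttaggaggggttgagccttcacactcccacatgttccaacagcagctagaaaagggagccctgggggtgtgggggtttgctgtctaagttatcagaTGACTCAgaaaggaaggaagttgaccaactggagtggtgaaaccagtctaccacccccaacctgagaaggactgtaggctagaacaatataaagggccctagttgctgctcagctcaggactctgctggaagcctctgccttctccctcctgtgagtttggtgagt
Anxa10: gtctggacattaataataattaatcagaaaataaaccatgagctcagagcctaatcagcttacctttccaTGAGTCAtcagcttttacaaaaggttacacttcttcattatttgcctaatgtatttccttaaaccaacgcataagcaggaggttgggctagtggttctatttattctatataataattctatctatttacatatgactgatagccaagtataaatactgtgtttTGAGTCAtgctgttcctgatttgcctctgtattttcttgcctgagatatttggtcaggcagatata
Wfdc2: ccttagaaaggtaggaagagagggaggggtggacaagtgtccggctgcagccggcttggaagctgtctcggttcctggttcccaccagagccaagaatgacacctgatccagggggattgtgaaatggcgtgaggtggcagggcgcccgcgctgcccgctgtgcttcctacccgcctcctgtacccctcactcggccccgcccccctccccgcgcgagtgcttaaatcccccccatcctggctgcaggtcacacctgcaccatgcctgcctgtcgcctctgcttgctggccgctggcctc
Sprr1a and Anxa10 each held 2 matches, Ivl held 1, and Wfdc2 and Fermt1 held none, whereas 7.93% of all 27025 promoters of this length held at least 1. A match describes letters in the window and not binding.

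The selecting genes themselves are given as a description, since they chose the cells. Sprr1a was at 745, 746, 387 and 601 CPM in S-leading cells and at 154, 195, 76.1 and 209 CPM in all other gated cells. Ivl was at 63.3, 56.8, 35.9 and 27.8 CPM against 16.3, 14.7, 8.65 and 4.15 CPM. Anxa10 was at 205, 206, 109 and 147 CPM against 77, 101, 45.8 and 53 CPM. These 3 genes were thus high in S-leading cells of every library, and for all 3 the D-CAN level was under that of both Pdgfrb-TK libraries. Glod5 had another order among libraries, at 69.3, 68.3, 129 and 17.8 CPM, with D-CAN highest and WT/PBS lowest. Fermt1 was at 158, 131, 147 and 71.3 CPM against 90.3, 119, 137 and 52.7 CPM in the other gated cells, and in H-leading cells at 164, 150, 166 and 67.2 CPM. Wfdc2 was the most abundant of the set, at 1884.1, 2744, 1708.9 and 2382.6 CPM. By detection without thinning it was the least selective, since it was found in 98.2%, 99.5%, 99.3% and 98.1% of S-leading cells and in 84.8%, 91.9%, 88.2% and 89.5% of the other gated cells. By ratio of levels, Fermt1 lay nearer to the other gated cells than Wfdc2 in every library. In H-leading cells Wfdc2 stood at 1619.7, 2051, 1660.2 and 1824.5 CPM.

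Some S genes were found together in gated cells more than others. With every cell thinned to 2000 UMIs, Sprr1a and Ivl were found in the same cell 2.35 to 3.59 times as often as the product of their shares gives, Sprr1a and Anxa10 1.77 to 2.36 times, and Ivl and Anxa10 1.66 to 3 times, over the 4 libraries. Glod5 and Fermt1 0.824 to 1.16, and Sprr1a and Glod5 0.665 to 1.3. Glod5 ranged widely with Anxa10 (0.717 to 2.25) and with Ivl (0 to 2.28). The ratios with Ivl rest on only 12, 30, 13 and 0 cells with both genes, so the 0 is not read. Thus Sprr1a, Ivl and Anxa10 were the genes found together above the product of their shares in all 4 libraries by the widest margin, while Wfdc2 was in too many cells (52.9% to 90.5% of S-leading or other gated cells after thinning) for this ratio to rise far above 1. Cells share library and depth in these ratios, which are a description.

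Most S-leading cells carried 3 to 5 S genes. In Pdgfrb-TK/GCV, 178, 310, 449, 348 and 147 cells had 2, 3, 4, 5 and 6 of them. In WT/PBS the counts were 413, 524, 401, 205 and 55, so that cells with the fewest S genes were more common there. The number moved with depth, from a median of 7164 UMIs with 2 S genes to 29155 UMIs with 6 in Pdgfrb-TK/GCV, and from 6354 to 52733 UMIs in WT/PBS. Just inside the limit, the lead was 1 gene in 53.91%, 58.39%, 60.27% and 60.51% of S-leading cells. Just outside it stood 824, 1167, 475 and 967 cells in which the S genes shared the lead, and 32, 7, 42 and 88 cells with 1 S gene and no gene of another set. A cell with only S genes was rare, at 2.095%, 0.203%, 2.74% and 2.628% of S-leading cells, and 78.84%, 97.23%, 66.61% and 80.29% held a transcript of at least 1 G gene as well. The S-leading call is therefore a range cut from a count of genes and not a type, with many cells near the limit.

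The S-leading share of gated cells was 26.61% (95% Clopper-Pearson interval 25.44 to 27.81), 24.71% (23.62 to 25.82), 18.96% (17.59 to 20.39) and 32.04% (30.74 to 33.35). These intervals, like all others here, cover counting error only. As counted, the D-CAN share was lowest and the WT/PBS share highest, and their ratio was 0.5919 (0.5374 to 0.6511). After thinning each cell to 2000 UMIs the shares were 20.85%, 20.76%, 18.12% and 23.62%, and the ratio of D-CAN to WT/PBS was 0.7671 (0.6924 to 0.8491). Thinning also showed how loosely the call sits on a cell, because 52.44%, 51.83%, 47.09% and 47.93% of S-leading cells kept it. Without Wfdc2 in the rule the shares were 12.23%, 10.36%, 7.175% and 12.45%. With thinning as well, chosen after seeing the data, they were 8.344%, 6.102%, 4.643% and 6.536%, with Pdgfrb-TK/GCV highest. Of all deposited cells they were 11.66%, 14.08%, 5.414% and 13.71%, with Pdgfrb-TK/PBS highest. For GCV the ratio to Pdgfrb-TK/PBS was 1.077 (1.001 to 1.159), and 1.004 (0.9256 to 1.09) thinned. It turned to 0.9764 with a minimum of 5000 UMIs, to 0.828 as a share of all deposited cells and to 0.8307 against WT/PBS, so no direction is given for GCV. The 2 PBS libraries differed from each other by a ratio of 0.7712 (0.7181 to 0.8283), Pdgfrb-TK/PBS over WT/PBS, without a depleting agent in either. A change with treatment cannot be told apart from a difference between libraries of this size.

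**Figure D1:**
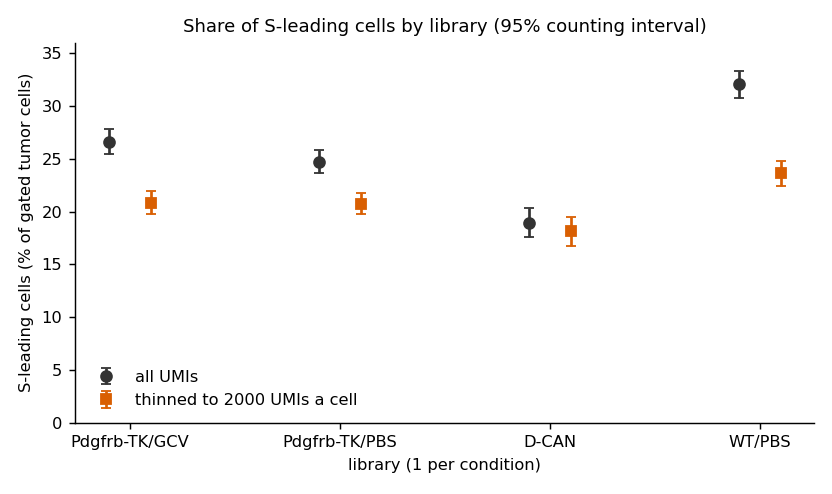
S-leading cells as a percentage of gated epithelial tumor cells in each library (y axis), as counted and after thinning each cell to 2000 UMIs, with 95% Clopper-Pearson intervals for counting error. D-CAN is lowest in both forms (18.96% and 18.12%) and WT/PBS highest (32.04% and 23.62%), and the gap narrows after thinning.

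The squamous name was then set against squamous genes outside the rule. Trp63, the master regulator of stratified epithelium, was at 0.267, 0.0912, 0.0575 and 0 CPM in S-leading cells, where 0 UMIs in WT/PBS allow up to 0.07814 CPM. Krt5, its keratin partner in basal cells, had no UMI in any of the 4 libraries, which allows up to 0.1145, 0.1369, 0.1724 and 0.07814 CPM. Krt14 was at 3.2, 1.32, 0.862 and 2.58 CPM, and Krt6a at 1.83, 0.137, 0.46 and 0.964 CPM. The basal squamous keratins and their regulator were thus at or near 0 in every library. Most cornified genes were low as well, with Lor at 2.29, 0.912, 1.61 and 6.07 CPM, Sprr1b at 0.267, 0, 1.78 and 2.66 CPM, Krt1 at 0, 0.0456, 0.0575 and 0 CPM and Flg at 0, 0.137, 0 and 0.0781 CPM. Sprr2a3, a small proline-rich protein, was at 7.97, 15.2, 8.5 and 7.89 CPM against 5.76, 12.1, 6.63 and 3.98 CPM in the other gated cells, and the suprabasal keratin Krt10 at 15.9, 14.2, 17.6 and 25.8 CPM. Of 42 cornified and suprabasal genes, Hrnr, Sprr4, Flg2, Rptn, Sprr3, Calml3, Krt2, Klk5 and Klk7 had no UMI in S-leading cells. The 42 genes summed to 83.9, 96.6, 126 and 114 CPM in S-leading cells and to 77.1, 98.3, 95.6 and 107 CPM in the other gated cells. Of 11 that could be compared, 4 were higher and 2 lower in all 4 libraries, beside 14.2% and 56.3% of all genes. None was past 2-fold in all 4. Against N-leading cells, 3 of 9 were over 2-fold higher in all 4 libraries and 1 lower, beside 2.43% and 2.28% of all genes.

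A few squamous-associated genes were present at low levels. Sox2, a factor of squamous and foregut epithelia, was at 61.8, 28.5, 37.1 and 42.3 CPM against 67.1, 32.8, 38.2 and 48.7 CPM in the other gated cells. Serpinb5 (maspin), a serpin of basal and glandular epithelium, was at 31.9, 34.6, 19.2 and 23.2 CPM against 10.5, 23.7, 9.44 and 10.9 CPM in the other gated cells, and G-leading cells had 46.3, 39.3, 10.8 and 41.2 CPM. Ly6d, a surface protein of stratified epithelium, was at 12.7, 9.22, 40.3 and 3.15 CPM against 3.78, 5.57, 13.2 and 2.37 CPM. Perp, a desmosome-linked p53 and p63 target, reached 59, 77.1, 39.4 and 96.1 CPM. For comparison, the simple epithelial keratin Krt8, which the gate used, stood at 3541.6, 4343.6, 3104 and 3607.6 CPM. The 18 basal squamous genes summed to 180, 153, 124 and 189 CPM against 134, 136, 91.7 and 159 CPM in the other gated cells, and 4 of the 7 that could be compared were higher in all 4 libraries (14.2% of all genes were), with medians of 0.13 to 0.52 beside -0.28 to -0.19 for all genes, and 0 were apart. Perp, Sox2 and Serpinb5 gave most of the S-leading sum, with no stratified keratin at such a level. With Trp63 and Krt5 at or near 0, the data go against the squamous name, and the cells keep the name of their leading genes.

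**Figure D2:**
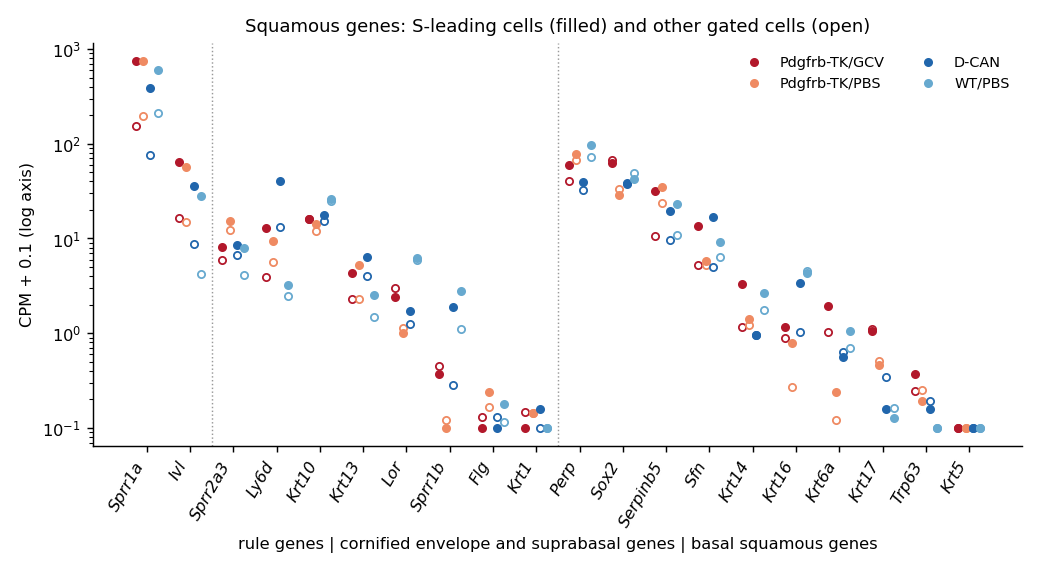
Summed CPM with 0.1 added (y axis, log scale) of 2 rule genes, 8 cornified and suprabasal genes and 10 basal squamous genes (x axis) in S-leading cells (filled) and all other gated cells (open), with 1 color a library. Sprr1a lies at 387 to 746 CPM in S-leading cells, whereas Krt14, Krt6a, Krt17, Trp63 and Krt5 lie at 3.2 CPM or lower.

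The epidermal differentiation complex, here the 74 genes between chr3:90511034-93564643 on mm10, was examined because Sprr1a and Ivl lie in it. In S-leading cells of all 4 libraries together, 49 of its genes had under 50 UMIs, among them 21 with none. Of the 16 genes that could be compared with the other gated cells, 11 were higher in all 4 libraries, beside 14.2% of all genes, and 0 were past 2-fold in all 4. Most of these 16 were S100 genes, which encode small calcium-binding proteins made in many simple epithelia. S100a6 was the most abundant, at 20704.5, 41559.4, 17185.4 and 27384.9 CPM against 12134.9, 27248.7, 12038.7 and 17326.5 CPM. Of 13 S100 genes in the wider list, 11 were higher in all 4 libraries, beside 14.2% of all 12756 genes tested. Most S100 genes of that list lie in the complex, so this count overlaps the one above.

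Against all other gated cells the S-leading cells stood out in few genes. A gene was called apart where its log2 ratio of summed CPM (with 1 CPM added) was past 1 in each of the 4 libraries. A gene needed at least 50 UMIs in each library over both groups together, which in part lets genes pass through the group where they are high. Only Uts2 was apart on the higher side (0.00784% of genes tested) and 17 genes were apart on the lower side (0.133%). These counts describe cells chosen on the same transcripts and carry no test. The median of all genes lay at -0.28 to -0.19, and 56.3% of genes were lower in all 4 libraries, so the values below are relative to a shift downwards. Without the WT/PBS library, 2 genes were apart on the higher side and 93 on the lower side, and without either Pdgfrb-TK/PBS or D-CAN 3 were apart on the higher side. With at least 3 S genes a cell, 0 were higher and 55 lower. The lower count dropped to 1 with 10 CPM added, to 3 without the 5% of cells with the most UMIs and to 4 with equal cell weights, and Uts2 was no longer apart with 10 CPM added, with a minimum of 200 UMIs, after thinning, with at least 3 S genes or without Wfdc2 in the rule.

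Uts2, which encodes the vasoactive peptide urotensin 2, was at 3.05, 14.6, 4.71 and 7.84 CPM against 0.926, 6.4, 1.64 and 2.97 CPM, so the one gene that passed was a low one. In G-leading cells it was at 7.31, 17.7, 0 and 5.4 CPM, above the S-leading level in both Pdgfrb-TK libraries. More abundant genes leaned the same way in all 4 libraries below 2-fold in at least 1. Lgals3 (galectin-3), a lectin of many epithelia and macrophages, was at 1193.9, 1036.3, 996 and 1121.6 CPM against 513, 585, 499 and 666 CPM, with log2 ratios of 1.22, 0.82, 0.99 and 0.75. Nupr1, a stress-response regulator first known from injured pancreas, was at 618, 556, 570 and 353 CPM against 358, 330, 331 and 210 CPM. Its ratios were among the most even of the named genes, at 0.79, 0.75, 0.78 and 0.75.

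Some of the 25 leading genes, none of them apart, encode cytokines and chemokines. Il1rn, the interleukin-1 receptor antagonist, was at 71.9, 55.9, 41.7 and 50.8 CPM against 32.4, 25.8, 27.7 and 23.2 CPM. Il1a, an alarm cytokine on the same receptor, was at 16.9, 6.84, 4.19 and 6.12 CPM, with Pdgfrb-TK/GCV highest. Ccl20, the chemokine that draws CCR6-bearing lymphocytes, was at 28.7, 11.3, 11.5 and 20.4 CPM against 6.21, 6.88, 6.04 and 9.23 CPM. Both the cytokine and its antagonist were thus on the higher side in all 4 libraries, as was Cxcl16 at 51.9, 37.9, 49.8 and 50.5 CPM. Others serve metabolism. Hilpda, a lipid-droplet protein induced by hypoxia, was at 530, 331, 364 and 444 CPM against 271, 201, 176 and 299 CPM, and Pgk1 of glycolysis was at 842, 697, 921 and 503 CPM against 515, 434, 537 and 332 CPM. Apoc2, an activator of lipoprotein lipase, was at 126, 425, 71.2 and 153 CPM against 50.2, 203, 46.5 and 51.6 CPM, while G-leading cells had 183, 241, 97.3 and 183 CPM, more than S-leading cells in 3 of 4 libraries. Akr1b8, an aldo-keto reductase, was at 199, 256, 141 and 198 CPM against 90.8, 166, 90.4 and 115 CPM. Of 22 genes of hypoxia and glycolysis, 11 were higher in all 4 libraries and 3 lower, beside 14.2% and 56.3% of all genes, and 0 were apart. Against N-leading cells, 5 of the 22 were higher and 4 lower in all 4 libraries, beside 22% and 52.8% of all genes, with medians of -0.23 to 0.30.

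On the lower side, the ion channel gene Piezo2, a mechanosensor, was furthest away by the weakest of the 4 ratios. It was at 72.8, 31.6, 118 and 54.3 CPM against 383, 140, 371 and 145 CPM, with log2 ratios of -2.38, -2.12, -1.64 and -1.41. Dach1, a transcriptional cofactor, was at 1.68, 0.365, 0.919 and 1.93 CPM against 11.9, 4.38, 7.54 and 6.26 CPM. Sema3a, a guidance cue, was at 15.5, 8.81, 7.93 and 11.4 CPM against 60.3, 33.6, 35 and 26.2 CPM. Tff3, a trefoil peptide of goblet cells, was at 5, 31.5, 2.41 and 19.8 CPM against 19.4, 73.3, 10.8 and 51.9 CPM. Many of the lower genes are high in N-leading cells, as shown next.

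**Figure D3:**
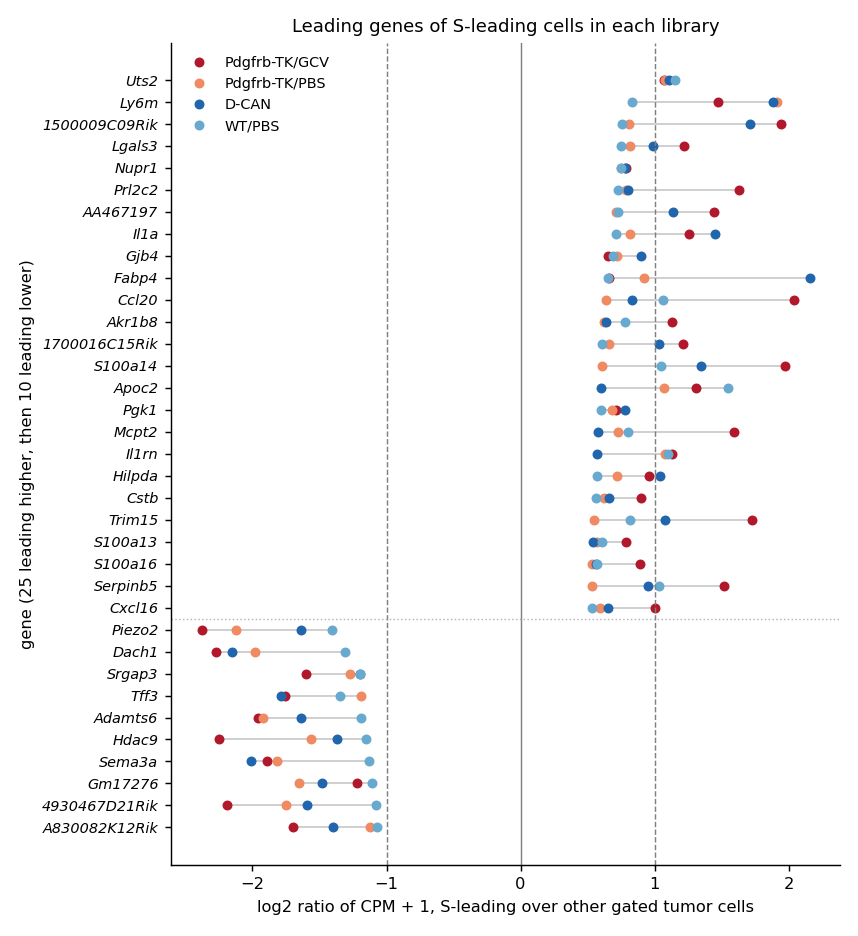
Log2 ratio of summed CPM in S-leading cells over all other gated cells (x axis) for the leading higher and lower genes (y axis), 1 point a library. The higher genes lie at 0.53 or above in each library, and Piezo2 lies between -2.38 and -1.41.

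Set against N-leading cells, the S-leading cells had more transcripts of Lgals4, Tff2 and Gsta1, and fewer of Piezo2 and Ghr. Of 11292 genes tested, 274 (2.43%) were apart on the higher side and 258 (2.28%) on the lower side. Gsta1, a glutathione transferase, was at 94.6, 425, 98.5 and 249 CPM in S-leading cells against 4.69, 22.4, 3.46 and 11.4 CPM in N-leading cells. Lgals4, a galectin of the gut lining, was at 369, 1203, 348 and 711 CPM against 22, 78.9, 13.1 and 34.6 CPM. Tff2, a trefoil peptide of gastric mucous cells, was at 249, 550, 235 and 330 CPM against 25.5, 62.5, 10 and 9.42 CPM. No library of N-leading cells reached the lowest S-leading value of these 3 genes, which held for 8.89% of all genes tested, and the Pdgfrb-TK/PBS library was the highest for each. Phgr1 (log2 ratios of 4.11, 4.62, 5.16 and 4.93) had the same pattern, as had Fxyd3, an ion transport regulator, at 167, 319, 125 and 147 CPM against 11.8, 24.6, 6.83 and 5.74 CPM. Fabp1, a fatty acid binding protein gene of the gut, was at 34, 92.1, 10.8 and 23 CPM against 1.39, 5.66, 0.187 and 0.453 CPM. Tff2 and Fxyd3 were higher in H- and in G-leading cells than in S-leading cells of every library. In H-leading cells Tff2 stood at 1242.6, 1115.5, 1096.9 and 605 CPM. Gsta1, Lgals4 and Phgr1 were higher in H-leading than in S-leading cells of the treated libraries and lower in those of the PBS libraries. The genes named in this and the next comparisons lead by the weakest of their 4 ratios and were chosen after their values were seen.

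By list, 8 of 11 gastric pit and mucin genes were apart from N-leading cells on the higher side and 0 on the lower, with library medians of 1.81 to 2.71, whereas the median of all genes was -0.28 to -0.18. They were Muc1, Muc4, Tff2, Ctse, Vsig1, Lgals4, Gcnt3 and Fut2. Some list members passed the UMI minimum through 1 group only. Fut2, at 0.737, 1.32, 0.468 and 0.302 CPM in N-leading cells, passed it through S-leading cells. The list counts against N-leading cells are tilted by that minimum, and no result about a list is read from them. Of 25 genes of NRF2-linked and aldehyde detoxification, 10 were apart on the higher side and 1, Akr1c18, on the lower, and Gsta4 was at 586, 1429.3, 845 and 700 CPM in S-leading cells. Of 13 S100 genes 6 were apart on the higher side, and of 9 desmosome genes 4 were (Dsp, Pkp3, Dsg2 and Perp), beside 2.43% of all genes. The basal squamous list gave Serpinb5, Perp and Sfn on the higher side, none of which is a keratin or Trp63. They were 3 of 4 genes past the minimum over both groups together. Serpinb5, at 2.41 CPM in N-leading cells of Pdgfrb-TK/PBS and 1.96 CPM in those of WT/PBS, passed it there through S-leading cells. Of 16 genes of the mesenchymal list, 5 (Zeb2, Cdh2, Prrx1, Itga5 and Axl) were apart on the lower side, beside 2.28% of all genes. The same tilt holds for these counts. In all 4 libraries, 12 genes of that list were lower than in N-leading cells and 0 higher, beside 52.8% and 22% of all genes, and Vim, a mesenchymal intermediate filament at 2462.3, 2283.7, 2126 and 2756 CPM in S-leading cells, had log2 ratios of 0.37, 0.40, 0.25 and -0.04. Among the genes leading on the lower side were Piezo2, at 604, 551, 937 and 306 CPM in N-leading cells, and the growth hormone receptor gene Ghr, at 173, 75.1, 224 and 148 CPM in S-leading against 971, 824, 1183.9 and 538 CPM in N-leading cells. Both were lower in every S-leading library than in any N-leading one, as were 24.5% of all genes tested.

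Set against H-leading cells, the S-leading cells had more transcripts of Csf2, Inhba and Areg, and fewer of Dmbt1, Pdgfd and Prdm16. Of 11390 genes, 42 (0.369%) were apart on the higher side and 191 (1.68%) on the lower side. Csf2, which encodes the myeloid growth factor GM-CSF, was at 19.9, 10.3, 15.7 and 20.9 CPM in S-leading against 1.44, 1.08, 1.25 and 2.57 CPM in H-leading cells. Inhba, the activin A subunit, was at 168, 64.4, 77.7 and 48.9 CPM against 41.7, 12.4, 11.9 and 9.91 CPM. Areg (amphiregulin), a ligand of the EGF receptor, was at 305, 234, 210 and 398 CPM against 118, 81, 54.9 and 130 CPM. In each of these the lowest S-leading library was above the highest H-leading one, which held for 5.66% of all genes tested, and Csf2 and Inhba led by the weakest of their 4 ratios. N-leading cells also held Csf2 (9.5, 8.19, 21.3 and 31 CPM) and Areg (267, 333, 219 and 379 CPM), at levels that overlapped those of S-leading cells. Of 11 EGF receptor ligands and receptors, 1 was apart from H-leading cells on the higher side, beside 0.369% of all genes. In all 4 libraries 5 were higher and 3 lower, beside 17.8% and 51.1% of all genes, and the medians were -0.13 to 0.49. Pthlh, which encodes a parathyroid hormone-related peptide (log2 ratios of 2.59, 1.60, 2.08 and 2.08) and Angptl4, an inhibitor of lipoprotein lipase (1.57, 1.38, 1.66 and 1.45), were also apart. Igfbp3, a binding protein of insulin-like growth factors, was at 202, 65.7, 132 and 96.7 CPM against 50.3, 22.6, 21.6 and 33.5 CPM. The collagenase gene Mmp13 was at 28.1, 9.4, 19.9 and 43.3 CPM against 10.6, 1.51, 3.4 and 14.7 CPM. N-leading cells held more Inhba, Pthlh and Igfbp3 than S-leading cells in every library, with Igfbp3 at 375, 270, 437 and 244 CPM. Their levels of Mmp13 (30.5, 19.5, 35.1 and 37.6 CPM) and Angptl4 (188, 203, 121 and 93.1 CPM) overlapped those of S-leading cells. Of 22 genes of hypoxia and glycolysis, Gapdh and Ankrd37 were apart, 13 were higher in all 4 libraries (17.8% of all genes were) and 0 lower, and the list medians were 0.44 to 0.84 beside -0.35 to -0.19 for all genes.

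On the lower side, Dmbt1, a mucosal scavenger receptor, was at 269, 388, 260 and 235 CPM in S-leading against 1713.7, 1479.1, 1079.9 and 778 CPM in H-leading cells. Pdgfd, a platelet-derived growth factor, was at 12, 11.3, 10.2 and 15.1 CPM against 67.5, 74.5, 55.2 and 72.3 CPM. Prdm16, a transcriptional regulator, was at 36.5, 45.3, 35.7 and 13.8 CPM against 169, 181, 114 and 56.5 CPM. These 3 genes were lower in every S-leading library than in any H-leading library, which held for 27.5% of all genes tested. Of 19 tight and adherens junction genes, 15 were lower in all 4 libraries and 2 were apart, and 8 of 9 desmosome genes were lower in all 4, beside 51.1% of all genes. Against N-leading cells, 6 of 9 desmosome genes were higher in all 4 and 0 lower, beside 22% and 52.8% of all genes. The junction list had 8 of 18 higher and 7 lower there. Counts against N-leading cells are tilted by the UMI minimum, and no result about a list is read from them. H-leading cells had medians of 9.753%, 7.519%, 7.944% and 11.91% mitochondrial and of 8.26%, 12.03%, 12.61% and 7.94% ribosomal transcripts. The part of that difference in the gene values was not tested.

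Against G-leading cells fewer genes were apart, 19 of 10574 (0.18%) higher and 29 (0.274%) lower, with the small D-CAN group among them. Tuba1a, a tubulin, was at 128, 76.5, 102 and 78.3 CPM in S-leading against 32.3, 25.6, 10.8 and 10.5 CPM in G-leading cells, and Rbp4, a retinol carrier, at 468, 602, 965 and 558 CPM against 213, 285, 314 and 176 CPM. On the lower side were Ckmt1, a mitochondrial creatine kinase, at 6.71, 10.7, 4.77 and 6.77 CPM against 37.2, 39.8, 28.8 and 47.2 CPM, and Cldn18, the claudin of stomach, at 8.36, 19.5, 8.39 and 2.32 CPM against 41.4, 59.9, 21.6 and 17.2 CPM. Tff2, Cldn18 and Fut2 were apart on the lower side, 3 of 10 gastric pit and mucin genes. The library medians of the list were -1.26 to -0.51, beside -0.03 to 0.46 for all genes. G-leading cells were chosen on gastric and mucin genes such as Gkn1 and Muc5ac, so a lower value for this list was in part set by the rule. Against H-leading cells, 2 of 13 genes of that list, Pgc and Fut2, were apart on the lower side and 0 on the higher, 8 were lower in all 4 libraries, beside 51.1% of all genes, and the medians were -0.99 to -0.51 beside -0.35 to -0.19.

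Some genes were apart in more than 1 comparison. AA467197, S100a14 and Ly6m, 3 genes named after their values were seen, were apart on the higher side from both N- and H-leading cells, 7 genes from both H- and G-leading cells, and 0 genes from N-, H- and G-leading cells. By contrast, 39 genes were apart above N-leading and below H-leading cells, and 7 below N-leading and above H-leading cells, Inhba, Pthlh and Ptgs2 among them. No gene was apart on the lower side from both. These counts draw on lists of unlike size, with 274 genes higher and 258 lower against N-leading cells. Against H-leading cells 42 were higher and 191 lower. The share over all genes tested in both comparisons was not taken, so no place of S-leading cells between N- and H-leading cells is read from the counts. A score made from 50 genes that led in 3 libraries and read in the fourth was at medians of 10, 7, 7 and 9 detected genes in S-leading cells thinned to 2000 UMIs, against 7, 4, 5 and 8 in N-leading, 7, 5, 6 and 7 in H-leading and 9, 7, 3.5 and 9 in G-leading cells. The medians of S- and G-leading cells were equal in the 2 PBS libraries. Tied cells had medians of 9, 6, 7 and 9, equal to those of S-leading cells in D-CAN and WT/PBS. Of the 50 genes, the ratio in the left-out library was above 0 for 50, 46, 48 and 50, and above 1 for 23, 4, 10 and 7. The same counts over all genes were not taken, and the median ratio of all genes lay at -0.28 to -0.19. Cells of the left-out library were chosen by the same S genes, so the counts are a description.

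**Figure D4:**
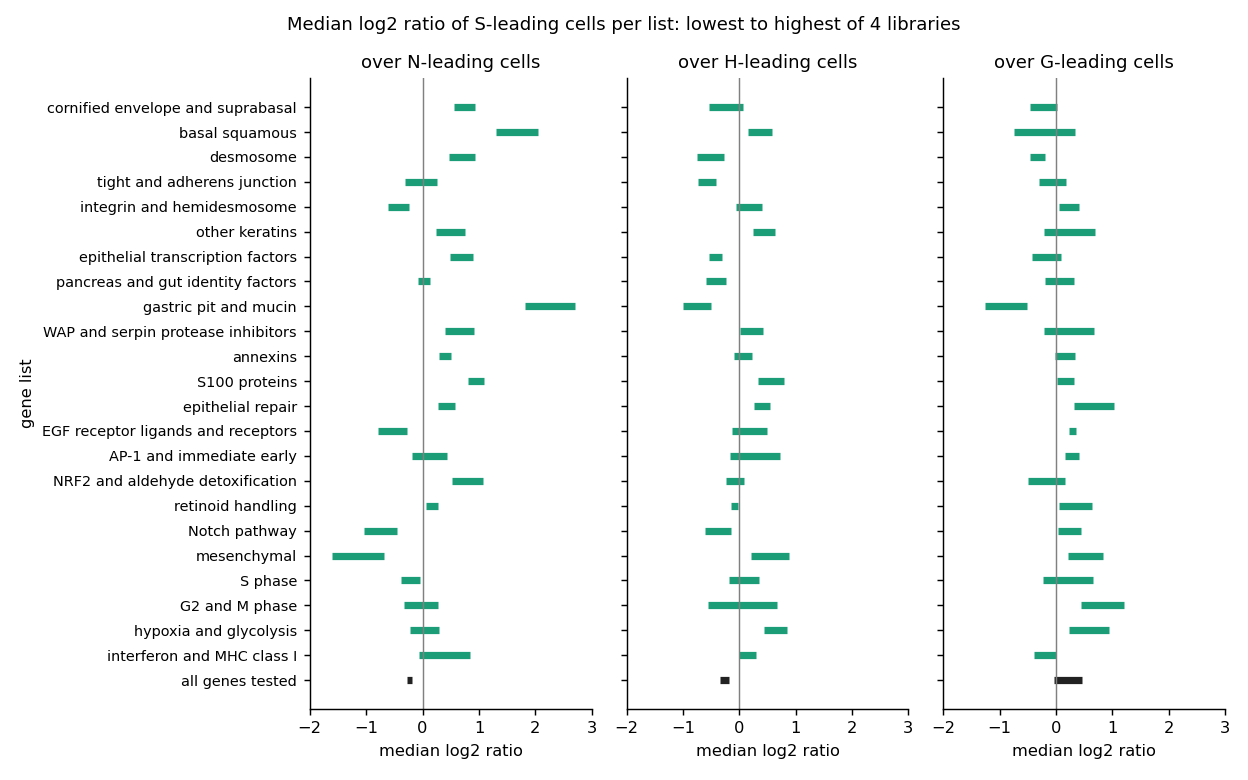
Median log2 ratio of S-leading cells over N-, H- and G-leading cells (x axis) for each gene list (y axis), with bars from the lowest to the highest of the 4 libraries and all genes tested in black. The gastric pit and mucin list lies at 1.81 to 2.71 over N-leading cells and at -1.26 to -0.51 over G-leading cells. G-leading cells were themselves chosen on gastric and mucin genes.

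The promoters of the leading genes were read for the same AP-1 letters. Among the 25 leading higher genes, 17 had a promoter in the table and 6 of these held TGANTCA (35.3%), namely AA467197, Il1a, Il1rn, Hilpda, Trim15 and Serpinb5, beside 7.93% of all promoters. Among the genes higher than in H-leading cells it was 5 of 29 (17.2%), and among those higher than in N-leading cells 22 of 192 (11.5%). For ACGTG, the core letters of hypoxia-response elements, it was 6 of 17 leading genes beside 19.7% of all promoters. Among the genes higher than in H-leading cells it was 8 of 29 (27.6%), and than in N-leading cells 30 of 192 (15.6%). For AACNNGTT, a grainyhead-type motif, it was 2 of 17 beside 4.19%, and in the other 2 sets 1 of 29 (3.45%) and 8 of 192 (4.17%). The 5 S gene promoters held neither of these 2 motifs. The genes were chosen for their values, and no test was made.

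Gene levels in S-leading cells also differed between treated and control libraries. For GCV against Pdgfrb-TK/PBS, 114 of 3287 genes (3.47%) were over 2-fold higher and 34 (1.03%) over 2-fold lower. Chil3, a chitinase-like protein of macrophages and stressed epithelium, was at 63.7 CPM in Pdgfrb-TK/GCV against 3.01 CPM, a fold of 21.2 (16.5 to 27.5). Thbs1 (thrombospondin-1) was at 59.6, 11.7, 15.9 and 46.4 CPM over the 4 libraries, and Ccn1, a matrix protein gene induced by YAP and injury, and Hspa1a were also over 2-fold higher. In all 3 genes the Pdgfrb-TK/PBS library was the lowest of the 4. On the lower side, Gsta1 was at 94.6, 425, 98.5 and 249 CPM, Ttr, the thyroid hormone carrier transthyretin, at 55.7, 226, 103 and 110 CPM, and Lgals4 at 369, 1203, 348 and 711 CPM. These 3 genes, which were also apart between S- and N-leading cells, were highest in Pdgfrb-TK/PBS, as were Phgr1 and Apoc2. Fn1 (fibronectin), the mesenchymal gene over 2-fold higher that passed the 50 CPM minimum in both libraries, was at 910, 282, 622 and 403 CPM, with Pdgfrb-TK/PBS again the lowest of the 4.

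Lyz2, a lysozyme of macrophages, was among the leading genes, at 58.9, 13.5, 4.65 and 4.64 CPM over the 4 libraries. The macrophage markers summed to 206, 130, 129 and 83.6 CPM in S-leading cells, with Cd14 the most abundant, against 1324.2, 418, 906 and 584 CPM in all deposited cells. All 10 of the markers were detected in each library. Csf1r was at 2.98, 0.958, 0.862 and 1.07 CPM, Adgre1 at 1.14, 0.137, 0.345 and 0.182 CPM and C1qa at 18.3, 5.06, 2.41 and 2.6 CPM. These 3 genes were, like Lyz2, highest in Pdgfrb-TK/GCV, where they stood at 32, 14.6 and 214 CPM over all deposited cells and Lyz2 at 542 CPM. The part of transcripts from macrophages in Lyz2 and Chil3 was not tested.

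For D-CAN against WT/PBS, 146 of 3508 genes (4.16%) were over 2-fold higher and 65 (1.85%) over 2-fold lower. The genes leading by fold on the higher side included Iigp1, Gbp2, Isg15 and H2-K1. Iigp1, an interferon-induced GTPase, was at 0.877, 0.593, 126 and 0.938 CPM, a fold of 135 (96.9 to 193) over WT/PBS. Gbp2, a guanylate-binding protein, was at 3.09, 2.14, 130 and 2.47 CPM, and Isg15, a ubiquitin-like interferon-induced protein, at 16, 7.48, 63 and 3.86 CPM. D-CAN stood alone above the other 3 libraries in these genes. H2-K1, an MHC class I heavy chain, was at 70.5, 34.1, 503 and 38.8 CPM, and its partner B2m at 208, 134, 1029.8 and 152 CPM. Several genes of the interferon and MHC class I list, Iigp1 and Gbp2 among them, passed the 50 CPM minimum through D-CAN alone, so no count over that list is read. In the other gated cells of the same 2 libraries the log2 ratio was 6.83 for Iigp1, beside 6.04 in S-leading cells, and 3.26 for H2-K1, beside 3.66. Ly6a, itself induced by interferon, was at 149, 64, 172 and 14.7 CPM, so that WT/PBS was the library that stood apart.

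The lower side of the D-CAN comparison held matrix and heat-shock genes. Mgp, an inhibitor of mineralization made by fibroblasts, was at 34, 57, 4.19 and 251 CPM, and Bgn (biglycan) at 13, 11.5, 8.1 and 80.9 CPM. WT/PBS was far above the other 3 libraries in both. The markers of cancer-associated fibroblasts summed to 76.1, 99.5, 51.1 and 396 CPM in S-leading cells and to 419, 787, 2884.2 and 3328.2 CPM in all deposited cells. The WT/PBS library was thus the one that stood high in both, and Col1a1 in S-leading cells was at 15.4, 25.2, 16.7 and 120 CPM. Whether these transcripts came from fibroblasts was not tested. Hspb1, a small heat-shock protein gene, was at 95.5, 55.9, 239 and 1126.8 CPM over the 4 libraries, and Cryab, a crystallin of the same family, at 22.9, 4.56, 11.2 and 112 CPM. For both, D-CAN was below WT/PBS and above Pdgfrb-TK/PBS, so the direction turned with the control library.

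The S genes themselves were uneven between libraries. For GCV the log2 ratio was -0.00 for Sprr1a and -0.54 for Wfdc2. For D-CAN it was -0.64 for Sprr1a, 1.03 for Fermt1 and 2.79 for Glod5, which also stood high in the other gated cells of that library (72.7 CPM).

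The treated libraries of the 2 models have different PBS controls, and 3132 genes could be compared in both. Of these, 9 were over 2-fold higher and 6 over 2-fold lower in both, 9 were higher with GCV and lower with D-CAN, and 4 (Ifi27l2b, Smim6, Tm4sf4 and Ugt2b34, named after their values were seen) ran the other way. The shared higher genes included H2-K1, Ly6a, the Notch ligand gene Jag1, Piezo2 and AA467197. The shared lower genes were Apoc2, Gsta1, Lgals4, Phgr1, Rbp2 and Rflnb, of which Apoc2 and Rbp2 serve lipid and retinoid handling. The 9 that were higher with GCV and lower with D-CAN were Ccn1, Cxcl1, Gadd45b, Hmox1, Hspa1a, Hspa1b, Hsph1, Plk2 and Ptgs2, most of which are known to be induced by stress or injury. Hmox1, a heme oxygenase, was at 93.2, 27.1, 80.4 and 191 CPM, and Ccn1 at 91.1, 14.1, 65.5 and 159 CPM. In both genes WT/PBS was highest and Pdgfrb-TK/PBS lowest of the 4 libraries.

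More genes were past 2-fold between the controls than between either treated library and its control. Between the 2 PBS libraries, 98 of 3364 genes (2.91%) were over 2-fold higher in Pdgfrb-TK/PBS and 188 (5.59%) over 2-fold lower, led by Hspa1a at 16.5 against 544 CPM. Against the other model's PBS library, GCV gave 97 genes higher, 19 of them among the 114, and 59 lower, 2 of them among the 34. For D-CAN it gave 162 higher, 36 of them among the 146, and 36 lower, 11 of them among the 65. The genes past 2-fold in S-leading cells had the same sign in the other gated cells for 148 of 148 genes with GCV and for 211 of 211 with D-CAN, and 101 and 181 of them were past 2-fold there too. Both groups of cells came from the same libraries, and the same sign count over all genes tested was not taken. Treatment and library cannot be told apart with 1 library a condition.

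**Figure D5:**
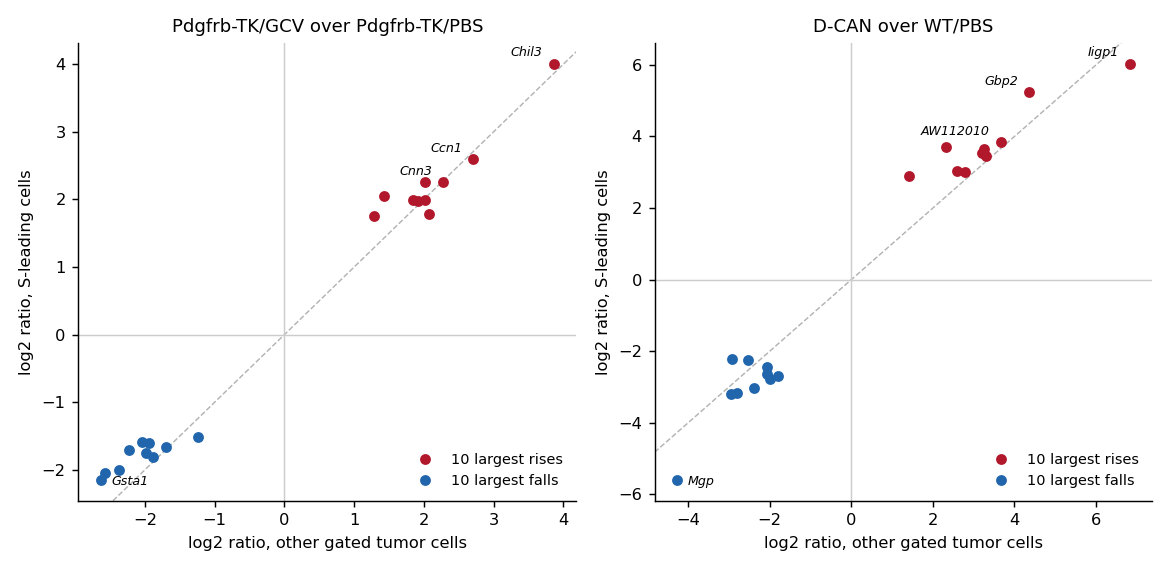
Log2 ratio of treated over control library in S-leading cells (y axis) against the same ratio in all other gated cells (x axis), for the leading genes of GCV and D-CAN. Points have the same sign on both axes, with Iigp1 at 6.04 and 6.83 and Mgp at -5.60 and -4.27 for D-CAN. Some lie off the line of equal values, such as Cd74 at 2.90 and 1.42 for D-CAN.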

How the data were processed

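Single-cell RNA libraries of pooled tumor cells were measured in 4 samples, 1 a condition; the labels' extraction text describes nuclei of another tissue, whereas the study's methods describe cell suspensions of tumors, and the libraries were treated as cells, which bears on the mitochondrial and ribosomal shares. The deposited files are 10x matrices of raw UMI counts per gene and cell, made by the authors with Cell Ranger (version 7.0.0 in the file headers) with mm10; the submitters' processing notes also name STAR 2.6. Features shared by the 4 files numbered 32285. Counts were summed over the cells of a group and scaled to CPM over all genes but the 35 genes of the rule. Ratios used a pseudocount of 1 CPM. A gene was compared between groups with at least 50 UMIs in each library, and between conditions with at least 100 UMIs over both libraries and 50 CPM in the higher. Named genes were the rule genes, the 25 highest and 10 lowest by the weakest of the 4 ratios, the first 10 of each treatment direction, genes of the epidermal differentiation complex and, for each list, members that were apart or most abundant; those against N-, H- and G-leading cells were taken by the same weakest ratio after their values were seen. Shares have 95% exact Clopper-Pearson intervals, ratios of shares and folds exact conditional binomial ones. Thinning drew 2000 UMIs a cell without replacement. Of the 23 lists' genes, those absent from the files were not used here. The members and lists were chosen with earlier results of these data known. No test was made, as each condition has 1 library. The calculation was tested on simulated data. Python 3.11.15, numpy 2.4.6, scipy 1.17.1, pandas 2.3.3 and matplotlib 3.10.9 were used. Alternatives were other UMI and gene minimums, another pseudocount, equal cell weights, thinning, no Wfdc2, the other PBS library and leaving out each library.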

Additional observations from a re-analysis of the deposited data

Results flagged for a closer look

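Reporter sequences outside the measured genes were listed for the D-CAN and WT/PBS libraries. In S-leading cells GFPcds had 4 UMIs (0.227 CPM) for D-CAN and 42 UMIs (1.077 CPM) for WT/PBS, and Tdtomato had 60 UMIs in WT/PBS (1.538 CPM). These sequences are named because a signal appeared in features that no comparison used. Their CPM were scaled to all UMIs of the group, rule genes included. In the other gated cells GFPcds was at 0.2862 and 3.638 CPM, and in cells outside the gate at 12.62 and 33.43 CPM, so the S-leading level was the lowest of the 3 in both libraries. Tdtomato in WT/PBS was at 1.493 CPM in the other gated cells and at 32.07 CPM outside the gate. The source of these UMIs was not tested.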

How the results depend on the processing

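Each condition has 1 library, shares and folds carry counting error only, and depth limits genes under about 50 UMIs. No paired analysis was possible because each condition has 1 library. The ratio of S-leading shares for GCV (1.077) turned to 0.9764 with 5000 UMIs, 0.828 of all deposited cells and 0.8307 with the other PBS library, and was 1.18 without Wfdc2 and 1.368 thinned without Wfdc2, an alternative chosen after seeing the data. For D-CAN (0.5919) it was 0.7671 thinned, 0.6587 with 3 S genes, 0.395 of all deposited cells, 0.7674 with the other PBS library and 0.7104 thinned without Wfdc2, always below 1. Genes apart on the higher side (1) numbered 0 with 10 CPM added, with 200 UMIs, thinned or with 3 S genes, 2 with equal cell weights or without the 5% deepest cells and 4 against G-, N- and H-leading cells only, and 1 to 3 leaving out each library. On the lower side (17) they numbered 1 with 10 CPM added, 4 with equal weights, 55 with 3 S genes, 3 without the deepest cells, 82 without Wfdc2 and 38 against G-, N- and H-leading cells only (the last and that without Wfdc2 chosen after seeing the data), and 18 to 93 leaving out each library, 93 without WT/PBS. Genes past 2-fold with GCV numbered 609 higher and 116 lower with no count minimum, 63 higher thinned and 59 lower with the other PBS library. With D-CAN they numbered 908 higher and 550 lower with no minimum, 36 lower with the other PBS library and 101 lower thinned. The cause of these moves was not tested.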
